A study of Homo sapiens with 6 samples.

Results

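The genes described here are those of the death receptor pathway that runs from TRAIL and FAS to caspase-8. The list has 10 members: the ligand TNFSF10 (TRAIL), the signalling receptors TNFRSF10A (DR4), TNFRSF10B (DR5) and FAS, the decoy receptors TNFRSF10C and TNFRSF10D, the adaptor FADD, the initiator caspases CASP8 and CASP10, and CFLAR, which encodes the inhibitor c-FLIP. Each gene was read from a probe set paired with its symbol alone, the brightest where there were several, which gave values for 9 of the 10 members among 18417 named genes. The single probe set of TNFRSF10C is shared with another symbol, so TNFRSF10C was not analysed here.

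The arrays are Affymetrix whole-transcript arrays of HCT116, an established human colorectal carcinoma line that keeps wild-type p53. All cells received short interfering RNA duplexes by transient transfection and were taken 48 h later. In the 3 arrays labelled control the duplex was directed against GFP, and in the 3 labelled siChe-1 against Che-1, the transcription-associated nucleolar factor encoded by AATF. Genotype, medium and serum were the same in both groups, and one cell line was used throughout. Separate cultures are not stated in the labels, so the p-values reflect array-to-array spread alone, which may be technical.

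In this pathway a trimeric ligand gathers receptors whose cytoplasmic death domains recruit FADD, and FADD recruits caspase-8 and caspase-10 through death effector domains. Caspase-8 then activates itself and cleaves downstream caspases and BID, while c-FLIP, a caspase-8 relative without protease activity, occupies the same complex and restrains it. Decoy receptors bind TRAIL but lack a working death domain. Several of these genes, among them TNFSF10, FAS and CASP8, are known to be induced by interferons, and FAS and TNFRSF10B are known p53 targets.

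The label of the targeted gene has to be read with care. AATF read 7.55, 7.75 and 7.55 in the control arrays and 8.53, 8.81 and 8.87 in the arrays labelled siChe-1 (log2 RMA intensity), so the library labelled as depleted was the higher one. Directions below follow the labels as given, and exchanged labels would reverse all of them. Array medians lay between 4.95 and 5.05. The epithelial markers EPCAM, KRT8, KRT18 and KRT19 lay between 9.93 and 12.61, whereas VIL1 stayed between 3.57 and 3.76. CDH1 lay between 7.78 and 8.25 and CDX2 between 6.82 and 7.55. Differences, siChe-1 minus control, were -0.30, -0.39, -0.44 and -0.59 for EPCAM, KRT8, KRT18 and KRT19. For CDH1, VIL1 and CDX2 they were 0.33, 0.08 and -0.0041. Of 13 markers of leukocytes, fibroblasts and endothelium, means ran from 2.29 for LUM to 7.45 for CD68, and PTPRC lay between 2.28 and 2.57. Of these and 7 epithelial markers, CD68 and KRT19 passed, both lower. Summed over each list, intensities ran from 13.80 to 13.82 (control) and 13.35 to 13.44 (siChe-1) for epithelium, 8.41 to 8.72 and 7.54 to 7.87 for leukocytes, 7.42 to 7.48 and 7.67 to 7.84 for fibroblasts, and 4.88 to 4.97 and 4.97 to 5.16 for endothelium, as log2 of the sum. Of the 5 leukocyte markers measured, PTPRC, CD3E, CD14 and TYROBP had differences of 0.05, 0.06, 0.38 and 0.23, none of which passed, so the lower leukocyte sum came from CD68 alone. The part of these shifts in the results was not tested. The array labelled siChe-1 replicate 1 lay farthest from its group mean, at a root mean square of 0.24 log2 units over all genes against 0.13 to 0.17 for the other arrays.

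The pathway moved in a mixed way. The signalling receptors TNFRSF10A and FAS, the caspase CASP8 and the dim ligand TNFSF10 were lower in the arrays labelled siChe-1, and the decoy receptor TNFRSF10D was higher. TNFRSF10B, FADD, CASP10 and CFLAR did not pass. Thus 5 of the 9 measured members passed limma's test at an adjusted p under 0.05, 4 lower and 1 higher, where 3.72% of all genes passed, 2.52% lower and 1.19% higher. Over all genes these calls were 465 lower and 220 higher. With centring on array medians they were 680 and 170, with array weights 1517 and 1348, and without siChe-1 replicate 1 826 and 739. The members were chosen with earlier results of these data known, so this share is a description. Their median difference was -0.52 on the log2 scale, beside 0.01 over all genes, and 7 of the 9 lay below 0, beside 49.1% of all genes. The groups did not overlap for 7 of the 9, beside 24.0% of all genes, and 7 had an unadjusted p under 0.05, beside 17.7%. For each of the 7 without overlap an exact two-sided permutation test gave p = 0.1, the smallest that 3 arrays against 3 allow. In bulk RNA, fewer cells of a kind and less RNA per cell cannot be told apart.

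**Figure D1:**
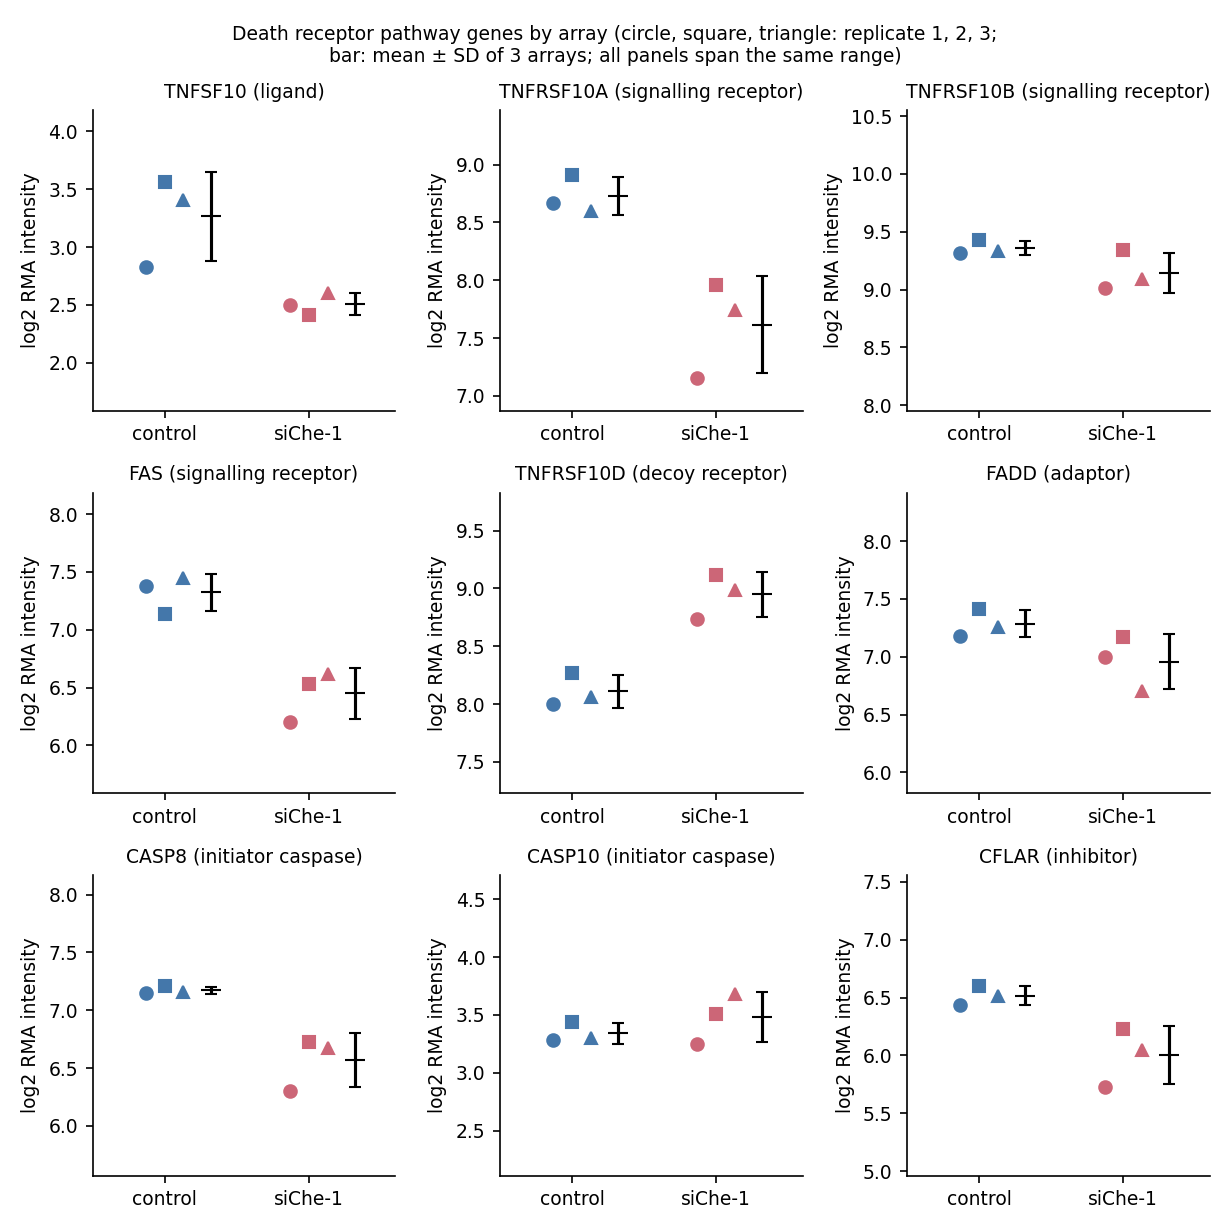
Log2 RMA intensity of the 9 measured members in each array, control in blue and siChe-1 in red, with circle, square and triangle for replicates 1, 2 and 3 and bars for the mean ± SD of 3 arrays. The groups of TNFSF10, TNFRSF10A, FAS, FADD, CASP8 and CFLAR are separate with siChe-1 lower, those of TNFRSF10D are separate with siChe-1 higher, and those of TNFRSF10B and CASP10 overlap.

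The ligand was lower from an already dim level. TNFSF10, which encodes the membrane-bound and shed ligand TRAIL, read 2.83, 3.56 and 3.41 in the control arrays and 2.50, 2.41 and 2.60 in the arrays labelled siChe-1. Every siChe-1 array was below every control array, and control replicate 1 was the lowest of its group. The means were 3.27 ± 0.38 and 2.50 ± 0.09 (SD, n = 3 each), a measured difference of -0.76 ± 0.18 (log2, SE) with limma adjusted p = 0.0469. Both means lie below 3.68, the median of the means of the markers of other cell types given above. TNFSF10 is thus not shown to be above background in either group, and the size of its fall is uncertain. Those marker means reach 7.45 for CD68, above the means of FAS, FADD, CASP8 and CFLAR, whose level against background was not tested. Without CD68, which was itself called lower, the marker means reach 7.21 and their median is 3.58. The TNFSF10 call was lost without control replicate 2 (adjusted p = 0.193), control replicate 3 (0.182), siChe-1 replicate 2 (0.105) or siChe-1 replicate 3 (0.0931).

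The promoter of TNFSF10 is shown because it holds a match to the interferon-stimulated response element, searched as GAAANNGAAA on both strands. The sequence is RefSeq's for GRCh38.p14, chr3:172523431-172523680, written along the gene on the minus strand and ending at the last base before the annotated start. Capitals mark the match, which lies on the opposite strand from base -187 to base -178, where -1 is the last base before the start.
TNFSF10: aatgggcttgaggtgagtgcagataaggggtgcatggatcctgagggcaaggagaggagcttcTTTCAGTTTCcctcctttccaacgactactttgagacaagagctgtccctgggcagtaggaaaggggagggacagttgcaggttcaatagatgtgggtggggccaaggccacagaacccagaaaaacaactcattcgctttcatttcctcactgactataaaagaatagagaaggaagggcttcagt
Such a match occurs in 3.57% of the 35116 RefSeq promoter windows of 300 bases. RefSeq windows were read for 5 members, TNFSF10, FAS, FADD, CASP8 and CFLAR, with 12 windows in all, some of which overlap. A match to the response element was found in 2 of the 12, this one and one of CASP8. The letters TGANTCA, a loosened AP-1 site that allows any middle base, were found in 5 of the 12, beside 7.71% of all windows. The matches in CFLAR, FAS and FADD read TGAATCA, which has neither C nor G in the middle and is not the usual AP-1 site. Those in CASP8 read TGAGTCA and TGACTCA. A match is a description of letters and not evidence of binding.

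Among the signalling receptors, TNFRSF10A and FAS were lower and TNFRSF10B did not pass. TNFRSF10A, the TRAIL receptor DR4, read 8.67, 8.91 and 8.60 in the control arrays and 7.15, 7.96 and 7.74 in the arrays labelled siChe-1. The groups did not overlap, and siChe-1 replicate 1 was the lowest array. The means were 8.73 ± 0.16 and 7.62 ± 0.42 (SD, n = 3 each), so the siChe-1 level was 46.3% of control, a difference of -1.11 ± 0.20 (log2, SE) with limma adjusted p = 0.0128. Without siChe-1 replicate 1 the difference was -0.88 (adjusted p = 0.00347). The call was lost without control replicate 1 (adjusted p = 0.0623), 2 (0.0852) or 3 (0.0572), with differences of -1.14, -1.02 and -1.18.

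FAS, the receptor for FAS ligand, read 7.38, 7.14 and 7.45 in the control arrays and 6.20, 6.53 and 6.62 in the arrays labelled siChe-1. The lowest control array stood above the highest siChe-1 array. The means were 7.32 ± 0.16 and 6.45 ± 0.22 (SD, n = 3 each), a difference of -0.87 ± 0.15 (log2, SE) with limma adjusted p = 0.00998, which leaves 54.6% of the control level. The call was lost without control replicate 1 (adjusted p = 0.0656) or 3 (0.0689), with differences of -0.84 and -0.81. None of the 3 FAS promoter windows held the response element or the gamma-activated site searched as TTCNNNGAA, which occurs in 7.66% of all windows. In 1 the loosened AP-1 letters TGANTCA, which occur in 7.71%, were found as TGAATCA.

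TNFRSF10B, the TRAIL receptor DR5, read 9.32, 9.43 and 9.33 in the control arrays and 9.01, 9.34 and 9.09 in the arrays labelled siChe-1. One siChe-1 array lay within the control range. The difference was -0.21 ± 0.13 (log2, SE, limma adjusted p = 0.433), and its 95% confidence interval ran from -0.50 to 0.07. With 1 array left out the difference did not pass and lay between -0.31, when siChe-1 replicate 2 was dropped, and -0.14, when siChe-1 replicate 1 was. That interval does not reach the estimate for TNFRSF10A, but the difference between the receptors was not itself tested.

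The decoy receptor moved in the opposite direction. TNFRSF10D, also known as DcR2, which binds TRAIL and carries a truncated death domain, read 8.0, 8.27 and 8.06 in the control arrays and 8.74, 9.12 and 8.99 in the arrays labelled siChe-1. All 3 siChe-1 arrays were above all 3 control arrays. The means were 8.11 ± 0.14 and 8.95 ± 0.19 (SD, n = 3 each), a difference of 0.84 ± 0.14 (log2, SE), or 1.79-fold, with limma adjusted p = 0.00885. By size this was the 68th largest rise among the 18417 genes. Without siChe-1 replicate 1, the lowest of its group, the difference was 0.95 (adjusted p = 0.00134), and the call was lost without control replicate 1 (0.79, adjusted p = 0.0618) or 3 (0.82, adjusted p = 0.0606).

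These receptors lie side by side. In the RefSeq annotation the protein-coding genes TNFRSF10B, TNFRSF10C, TNFRSF10D and TNFRSF10A follow each other in that order on chromosome 8, so the direct neighbours TNFRSF10D and TNFRSF10A were called in opposite directions. The 4 genes are close in sequence, and how far a probe set of one reads transcripts of another was not tested.

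**Figure D2:**
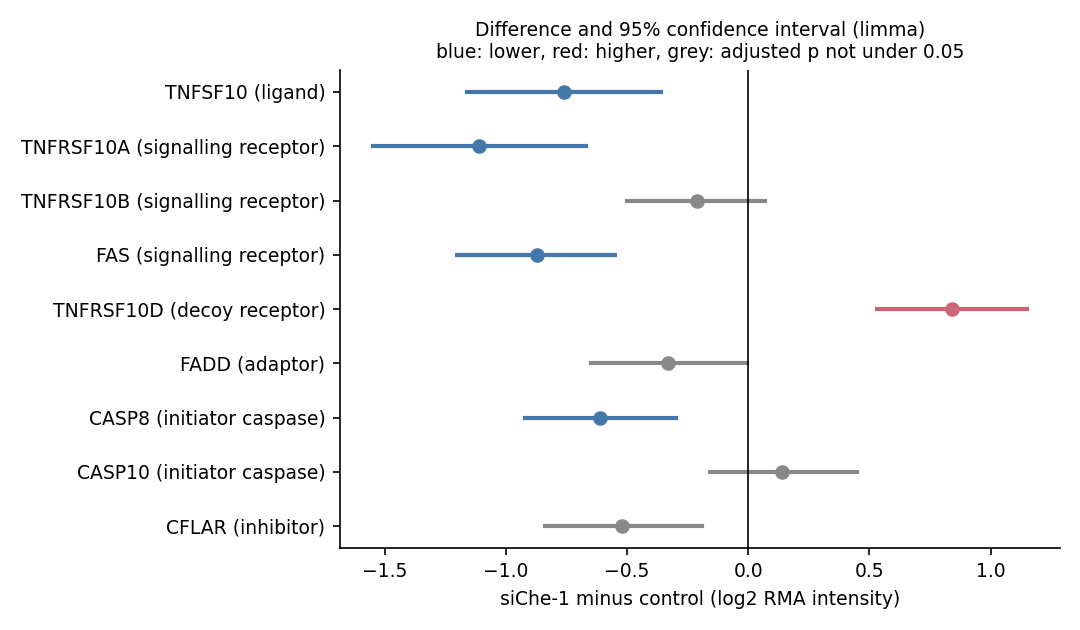
Difference in log2 RMA intensity, siChe-1 minus control, for the 9 measured members, ordered by role, with 95% confidence intervals from limma. TNFSF10, TNFRSF10A, FAS and CASP8 (blue) lie below 0, TNFRSF10D (red) lies above 0 at 0.84, and the 4 grey genes did not pass.

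Inside the receptor complex, CASP8 was lower and the adaptor did not pass. FADD, which joins receptor and caspase, read 7.18, 7.41 and 7.26 in the control arrays and 7.00, 7.17 and 6.70 in the arrays labelled siChe-1. The groups were barely separate, the lowest control array standing just above the highest siChe-1 array. The difference was -0.33 ± 0.14 (log2, SE) with limma adjusted p = 0.274, and without siChe-1 replicate 3 it was -0.20 (adjusted p = 0.590).

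CASP8, the initiator caspase of this pathway, read 7.15, 7.21 and 7.16 in the control arrays and 6.30, 6.73 and 6.67 in the arrays labelled siChe-1. The control arrays were close together and the siChe-1 arrays were all lower. The means were 7.17 ± 0.03 and 6.57 ± 0.23 (SD, n = 3 each), a difference of -0.61 ± 0.14 (log2, SE) with limma adjusted p = 0.0405, which leaves 65.6% of the control level. Without siChe-1 replicate 1 the difference was -0.47 (adjusted p = 0.0229). The call was lost without control replicate 1 (adjusted p = 0.148), 2 (0.162) or 3 (0.138) or without siChe-1 replicate 3 (0.0810).

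The first of 3 RefSeq promoter windows of CASP8 is shown because it holds the other match to the response element. The sequence is from GRCh38.p14, chr2:201233213-201233469 on the plus strand, with 250 bases before the annotated start and 7 of the transcript. Capitals mark the match, which spans the start from base -3 to base 7, counted without a base 0, and lies on the opposite strand.
CASP8: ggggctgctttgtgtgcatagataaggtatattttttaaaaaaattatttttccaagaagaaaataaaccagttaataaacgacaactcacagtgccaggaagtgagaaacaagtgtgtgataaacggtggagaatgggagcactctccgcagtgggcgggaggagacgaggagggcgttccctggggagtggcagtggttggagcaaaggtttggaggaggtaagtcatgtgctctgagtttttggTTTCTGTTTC
This window also held the gamma-activated site letters, from base -200 to base -192, which do not overlap the marked match. The other 2 CASP8 windows each held the AP-1 letters, as TGAGTCA and TGACTCA, and no match to the other motifs.

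CASP10, the second initiator caspase, read 3.28, 3.44 and 3.30 in the control arrays and 3.25, 3.51 and 3.68 in the arrays labelled siChe-1. The groups overlap and both means, 3.34 and 3.48, lie below 3.68, the median for the markers of other cell types. CASP10 is thus not shown to be above background. Its difference was 0.14 ± 0.14 (log2, SE), with an interval of -0.16 to 0.45 and limma adjusted p = 0.660. Leaving out siChe-1 replicate 1 gave 0.26, leaving out siChe-1 replicate 3 gave 0.04, and neither passed.

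CFLAR, the inhibitor c-FLIP, read 6.44, 6.60 and 6.51 in the control arrays and 5.73, 6.23 and 6.05 in the arrays labelled siChe-1. All siChe-1 arrays were below all control arrays. The means were 6.52 ± 0.08 and 6.00 ± 0.25 (SD, n = 3 each), and the difference of -0.52 ± 0.14 (log2, SE) did not pass, with limma adjusted p = 0.0843. Its second, dimmer probe set read 4.52, 5.25 and 5.41 against 4.68, 5.06 and 4.89, with overlapping groups and a difference of -0.19. The probe sets thus gave the same sign and unequal sizes. CFLAR, CASP10 and CASP8 are consecutive protein-coding genes on chromosome 2, and the dim CASP10 lies between the brighter pair.

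**Figure D3:**
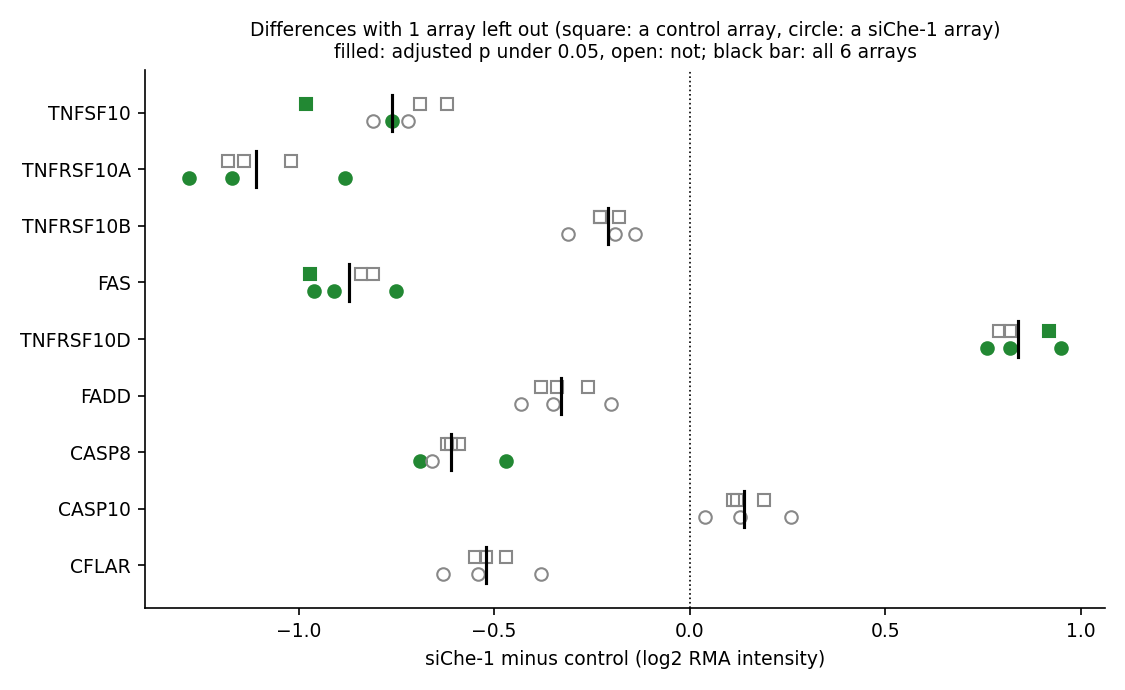
Difference in log2 RMA intensity, siChe-1 minus control, for each member with 1 array left out (squares, a control array; circles, a siChe-1 array), filled where the adjusted p stayed under 0.05, with a black bar for all 6 arrays. Every difference keeps its sign, and among the called members more open squares than open circles appear.

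The number of members called was smallest in fits without a control array. It was 1 without control replicate 1, 2 without control replicate 2 and 0 without control replicate 3 by limma. In each of these fits 6 members had an unadjusted p under 0.05, beside 2486, 2437 and 2659 of all 18417 genes. It was 5, 4 and 3 without siChe-1 replicates 1, 2 and 3. The count over all 18417 genes moved as well, from 685 to 273, 290 and 272 without a control array, and to 1565, 462 and 350 without a siChe-1 array. The sign of each member's difference was the same in all of these fits.

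The rest of the signalling network was covered by a list of 53 other genes grouped by role from textbook knowledge, of which 45 were measured. Of these 45, TNFAIP3, MLKL, RNF31 and BAK1 were lower and 41 did not pass (8.89% called, beside 3.72% of all genes). In the list 11 had an unadjusted p under 0.05, beside 17.7% of all genes. The median difference was -0.08, beside 0.01 over all genes. TNFAIP3, which encodes the ubiquitin-editing enzyme A20, read 7.33, 6.97 and 7.33 in the control arrays and 5.10, 4.65 and 4.71 in the arrays labelled siChe-1. Its difference of -2.39 ± 0.16 (log2, SE, limma adjusted p = 1.70e-05) was the largest of the list. MLKL, the pseudokinase that carries out necroptosis when caspase-8 is inactive, read 7.42, 7.53 and 7.70 against 6.24, 6.60 and 6.45. Its difference was -1.12 ± 0.14 (log2, SE, limma adjusted p = 0.00141), and its groups lay far apart. TNFAIP3 and MLKL each passed in all 6 fits with 1 array left out, while the number of called genes of the list ran from 2 to 7 in those fits. It was 2 without any 1 control array or siChe-1 replicate 3. Leaving out siChe-1 replicate 2 gave 3, and leaving out siChe-1 replicate 1 gave 7.

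The other called genes of the list were nearer the threshold. RNF31, which encodes the catalytic subunit HOIP of the linear ubiquitin ligase complex, read 7.96, 7.78 and 7.95 against 7.41, 7.40 and 7.21 (difference -0.56, limma adjusted p = 0.0337). Of the 6 fits with 1 array left out, it passed in that without siChe-1 replicate 1 and not in the others (adjusted p 0.157, 0.0828 and 0.134 without control replicates 1, 2 and 3, and 0.0672 and 0.132 without siChe-1 replicates 2 and 3). With the dimmer of its probe sets averaged in, the difference of RNF31 was -0.37 (adjusted p = 0.134). BAK1, an effector of mitochondrial permeabilisation, read 8.32, 8.26 and 8.32 against 7.94, 7.77 and 7.61 (difference -0.53, limma adjusted p = 0.0469). With 1 array left out it likewise passed only without siChe-1 replicate 1 (adjusted p 0.176, 0.146 and 0.156 without control replicates 1, 2 and 3, and 0.103 and 0.168 without siChe-1 replicates 2 and 3).

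By role, 1 of 8 adaptors and complex II components was lower, as were 2 of 10 ubiquitin ligases, deubiquitinases and inhibitors of apoptosis, and 1 of 9 genes of mitochondrial amplification. None of the 4 other ligands passed by limma, with none at an unadjusted p under 0.05. FASLG, the ligand of FAS, was nearest (-0.24, adjusted p = 0.580), and at means of 3.38 and 3.15 it is not shown to be above background. Without control replicate 1 its difference was -0.0045 (adjusted p = 0.993), and without control replicate 3 it was -0.37 (0.479). Also below the marker median of 3.68 in both groups were TNFSF15 (means 3.04 and 3.05), TNFRSF11B (2.48 and 2.42) and RIPK3 (3.58 and 3.49). For such dim genes the lack of a call does not show that they were unchanged. Of 5 other receptors and soluble decoys none passed and 1 had an unadjusted p under 0.05, the neurotrophin receptor gene NGFR (0.44, adjusted p = 0.245, and 0.21 without siChe-1 replicate 1). No inhibitor at the receptor of 4 passed, with PTPN13, a phosphatase that binds FAS, at 0.36 (adjusted p = 0.401), and no executioner caspase or substrate of 5, with the caspase substrate GSN at 0.20 (adjusted p = 0.411). In those last groups no gene had an unadjusted p under 0.05. PTPN13 was higher without siChe-1 replicate 1 (0.62, adjusted p = 0.0162) and with array weights (0.52, adjusted p = 0.0136), while without siChe-1 replicate 2 its difference was 0.18 (adjusted p = 0.687).

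**Figure D4:**
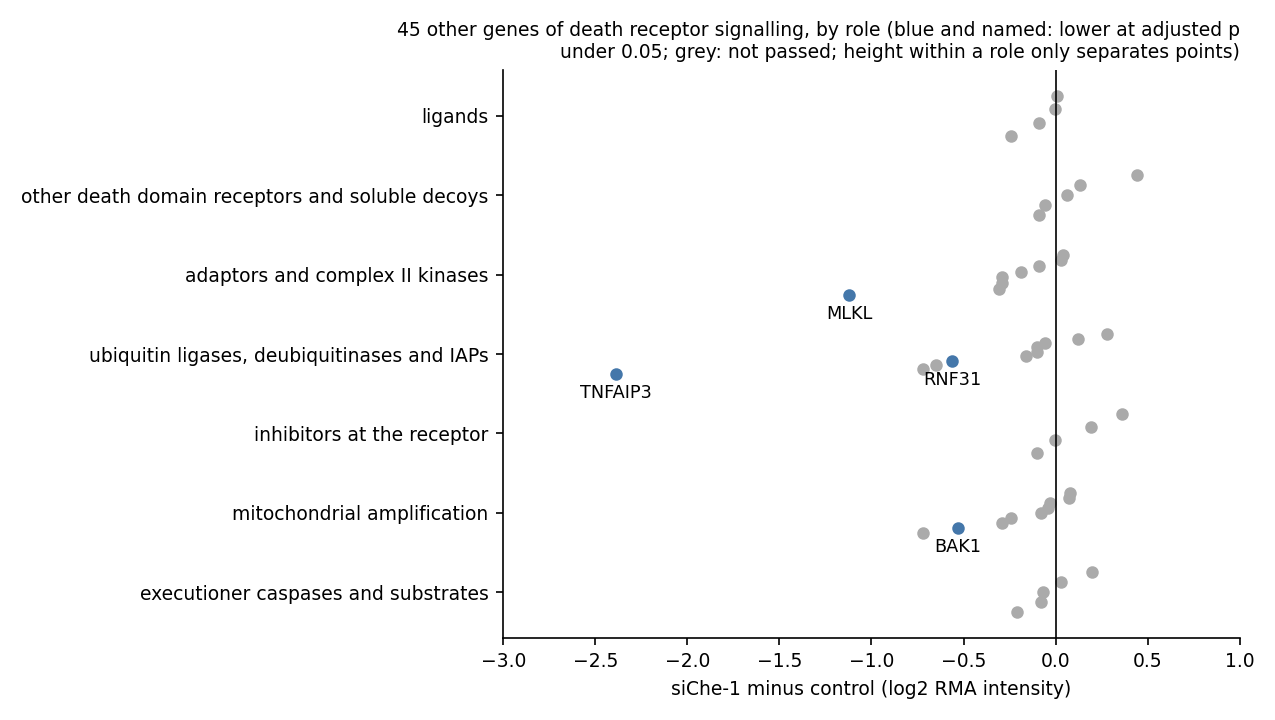
Difference in log2 RMA intensity, siChe-1 minus control, for 45 other genes of death receptor signalling, by role, where vertical position within a role has no meaning. TNFAIP3 at -2.39 lies farthest from 0, MLKL, RNF31 and BAK1 (blue) are the other called genes, and no gene was called higher.

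Genes with a like profile were sought by the root mean square distance between log2 values centred on each gene's mean over the 6 arrays. For TNFSF10 the nearest were KRT7 (distance 0.07), PLEK2 (0.10) and SAMD9L (0.12). TNFRSF10A was nearest to TRIML2, CMTR1 and RAET1E, each at 0.11. FAS was nearest to N4BP1 (0.07), BACH1 (0.09) and ATG12 (0.09), and CASP8 to IL12A (0.03), NOP14 (0.04) and SCFD2 (0.04). No member was among these neighbours. Their differences ranged from -0.57 for NOP14 to -1.26 for TRIML2 and RAET1E on the log2 scale. Being chosen for nearness to members that were lower, these neighbours were bound to be lower as well. KRT7, IL12A and NOP14 did not pass (limma adjusted p = 0.0681, 0.0568 and 0.0572). SAMD9L (means 3.69 and 2.90) reads low in both groups.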

How the data were processed

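The deposited table holds log2 intensities of 33297 probe sets on 6 arrays, deposited by the authors after RMA, with Affymetrix Expression Console also named in the submitters' processing notes and no version given. RMA scales the arrays to each other, which hides any change of total RNA, and it compresses differences of dim genes. The table has no detection calls, and precision is limited by having 6 arrays. The platform annotation paired 19460 probe sets with 1 symbol, 1754 with several and left 12083 unlisted, and the brightest single-symbol probe set stood for each of 18417 genes. There were 0 other value columns.

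The fit used lmFit and eBayes of limma 3.58.1 under R 4.3.3 on all genes without covariates, with Benjamini-Hochberg adjustment over all genes and a threshold of 0.05. The script was tested on simulated data, in which 200 of 18417 genes were changed. It recovered 65.0% of 2-fold and 98.0% of 4-fold changes, and 8.94% of its calls were false. The members and lists were chosen with earlier results of these data known. The genes named were AATF, the members, the called genes of the wider list (the nearest to the threshold in roles with none) and the 3 nearest profiles of 4 members. Cell type markers were named as a check of the samples, outside this rule, and were not carried through the alternatives. List genes without a single-symbol probe set were not analysed here. Alternatives were a second quantile normalization, median centring, a filter on the dimmest 40%, all probe sets, averaging probe sets, a trended robust prior, array weights, a replicate block, other thresholds and leaving out each array. Promoter sequences are RefSeq's (GRCh38.p14). Coordinates are given for promoters only, since no build is named for the array.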

Additional observations from a re-analysis of the deposited data

How the results depend on the processing

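No difference of AATF, a member, a named gene of the wider list or a nearest profile changed sign under any alternative run. TNFSF10 and CASP10 were tested under 13 alternatives, since leaving out the dimmest 40% of genes removed them, and the other members under 14. The differences ranged from -1.28 to -0.88 for TNFRSF10A, from -0.97 to -0.74 for FAS, from -0.69 to -0.47 for CASP8, from -0.98 to -0.62 for TNFSF10 and from 0.76 to 0.95 for TNFRSF10D. FAS and TNFRSF10D passed in 12 of 14 alternatives, TNFRSF10A in 10, CASP8 in 9 and TNFSF10 in 7 of 13. Of 5 called members, 2 passed when all 33297 probe sets were tested (TNFSF10 at adjusted p = 0.140, TNFRSF10A at 0.0654 and CASP8 at 0.113 did not), and 2 at an adjusted p under 0.01. Of the wider list, where 4 passed, 2 passed when all probe sets were tested, 2 at an adjusted p under 0.01 and 10 with array weights. Over all genes the count of 685 became 408 when all probe sets were tested, 261 at an adjusted p under 0.01, 1299 at an adjusted p under 0.1 and 2865 with array weights. Testing all probe sets adjusts over more tests, and the cause of the change with array weights was not tested. After a second quantile normalization TNFSF10 did not pass (adjusted p = 0.0574). With 1 array left out the counts ranged from 0 to 5 members, from 2 to 7 genes of the wider list and from 272 to 1565 of all genes. The replicate numbers are not said to mark a shared culture. Deviations from the group means correlated at 0.23, 0.06 and -0.04 between same-numbered arrays. Whether these arrays shared a culture or batch was not tested. The arrays numbered 1 correlated best with each other, while those numbered 2 and 3 did not correlate best with their own number. With the replicate block 6 members, 7 genes of the wider list and 1145 of all genes passed, CFLAR among them (adjusted p = 0.0384). CFLAR also passed with array weights (adjusted p = 0.0132), as did FADD (adjusted p = 0.0294). The table has no background signal, so no floor could be set for any gene, the dim TNFSF10 and CASP10 included.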
